A study of Mus musculus with 2 samples.

Results

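The Hox genes of hepatic stellate cells were examined for open chromatin by ATAC-seq, an assay that cuts and tags accessible DNA with a transposase. The 38 genes were taken by name, as 4 clusters, out of 21887 protein-coding genes in mm10: 10 in Hoxa on chromosome 6, 10 in Hoxb on chromosome 11, 9 in Hoxc on chromosome 15 and 9 in Hoxd on chromosome 2. Peaks were counted in each gene body with 1 kb on either side, called its window, and over each whole cluster with 20 kb on either side. The samples form 1 group of 2 replicates, called A and B, and with a single group there was no contrast to test. By the labels the mice were healthy, chow-fed and of the strain C57BL6/JBomTac, and both samples carried Gt(ROSA)26Sortm1(mCherry-Rpl10a-Flop)Kra and Tg(Lrat-cre)1Rshw. Nuclei were sorted on mCherry-RPL10A, so that the cells studied are those in which the Lrat-driven Cre had acted. The age of the mice, and whether A and B came from separate animals, are not given in the sources used here, and the spread between A and B may be technical.

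Hox genes encode homeodomain transcription factors that give embryonic cells their position along the body axis. Their order along each chromosome follows the order of the body regions in which they are used, from group 1 at the anterior end of a cluster to group 13 at the posterior end, and genes with the same number in different clusters are called paralogues. Retinoic acid is known to switch on the anterior genes in embryos, and Polycomb proteins are known to keep unused Hox genes silent. Fibroblasts and other mesenchymal cells of the adult are known to retain part of the Hox pattern of the place where they arose.

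Replicate A held 36577 peaks and B held 28794. Peaks of A sharing 1 bp or more with one of B, 23452 in all, are called replicated. Each peak has a fold enrichment over local background given by the authors' peak caller, with a median of 9.97 in A and 9.56 in B, which is used here only to describe and rank peaks within a list. The lists give no read counts, so the depth is unknown, and a gene without a peak is one where none was listed. Marker genes were counted to describe the sorted cells, where 51.4% of all protein-coding genes had a replicated peak in their window. Such a peak lay in the window of 10 of 10 stellate markers, 0 of 6 hepatocyte and 0 of 6 Kupffer and myeloid markers. It lay in 2 of 6 sinusoidal endothelial, 0 of 6 cholangiocyte, and 2 of 6 fibroblast, smooth muscle and mesothelial markers. The lists were not matched on gene length. Reln spans 460252 bp and held 12 replicated peaks, while Pkhd1, with 560304 bp, and Apoa1, with 1840 bp, held 0. The endothelial pair was Pecam1 and Clec4g, and the mesenchymal pair was Myh11 and Gli1; their part in the Hox peaks was not tested. In the list of B, peak names start with Oil, while its label gives a chow diet.

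Among the 38 Hox genes examined, those with a replicated peak in their window belonged to paralogue groups 3 to 6. Of the 38 genes, 6 had a replicated peak in their window: Hoxa3, Hoxa4, Hoxa5, Hoxa6, Hoxb6 and Hoxc6. That is 15.8%, where 51.4% of all protein-coding genes had one, and 45.6% of the 16380 that are no longer than the longest Hox gene. That gene, Hoxa3, spans 44009 bp and the shortest, Hoxc12, 1784 bp, so the 45.6% is not a share matched on length. The median was 0 replicated peaks per Hox gene and 1 per protein-coding gene. Only Hoxa3 had 2 or more, as did 17% of protein-coding genes. The 4 genes examined in groups 1 and 2, the 5 in groups 7 and 8 and the 16 in groups 9 to 13 had none, and the 13 in groups 3 to 6 held all 6. Counts by group cover only the 38 genes, and replicated peaks outside their windows enter no group. These blocks of groups were drawn after the counts were seen. With gene bodies alone 3 genes were open, Hoxa3, Hoxa5 and Hoxc6, where 48.7% of protein-coding genes were. Peaks were also ranked by the −log10 q of the peak caller, not by fold. Among the 10000 strongest of each list by that rank none of the 38 had a replicated peak, where 28.4% of protein-coding genes did.

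**Figure D1:**
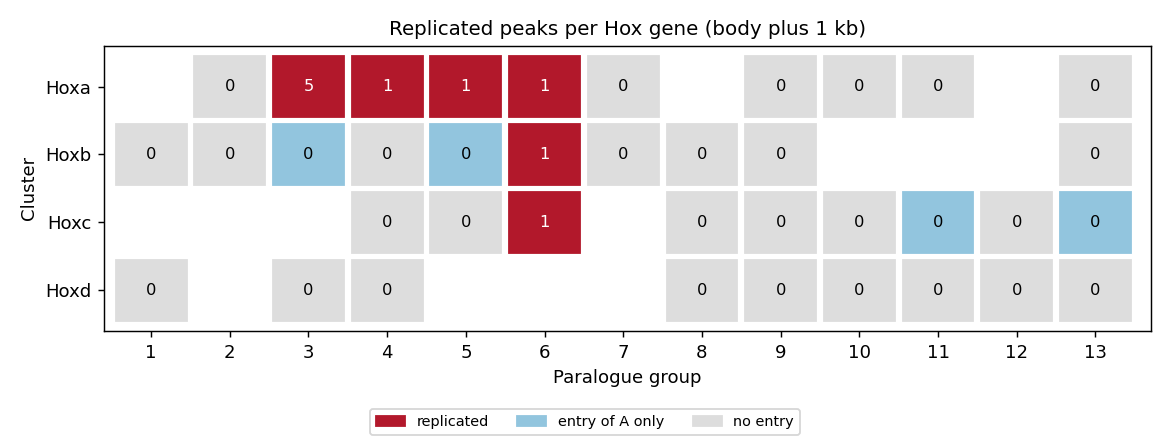
Replicated peaks in the window of each Hox gene, with paralogue groups from 1 to 13 on the horizontal axis and the clusters on the vertical axis; numbers in the boxes are counts, and blank places hold no gene examined here. The 6 red boxes lie in groups 3 to 6, and all 3 genes of group 6 are red.

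The replicates differed in how many Hox genes had a peak. In B the same 6 genes had a peak in their window, against 54.6% of protein-coding genes. In A there were 10, against 58.2%: the same 6 and Hoxb3, Hoxb5, Hoxc11 and Hoxc13, of which Hoxc11 and Hoxc13 lie outside groups 3 to 6. Group 6 was the one group in which every gene had a peak in its window, with 3 of 3 in both replicates. Hoxa6 counted only through a peak at the start of Hoxa5, and Hoxb6 only through a peak 356 bp outside its body. With gene bodies alone, Hoxc6 was the only open gene of group 6. Groups 3, 4 and 5 each had 1 gene with a replicated peak in its window, in Hoxa.

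Among the 22 genes with an entry in the RefSeq promoter table, a replicated peak overlapped the start of Hoxa5. Its sequence is shown with the starts of its neighbour Hoxa6 and of the group 4 gene Hoxd4, at which no peak lay. Each is the 250 bases before the start in RefSeq (GRCm38.p6), written 5′ to 3′ on the strand of the gene, and capitals mark bases that lie inside a peak of A and a peak of B. Hoxa5 is at chr6:52204588-52204837 on the minus strand, with 38 bases in both peaks next to the start and 28 CpG dinucleotides. Hoxa6 is at chr6:52208673-52208922 on the minus strand, with 24 CpG and no peak. Hoxd4 is at chr2:74721728-74721977 on the plus strand, with 3 CpG and no peak.
Hoxa5: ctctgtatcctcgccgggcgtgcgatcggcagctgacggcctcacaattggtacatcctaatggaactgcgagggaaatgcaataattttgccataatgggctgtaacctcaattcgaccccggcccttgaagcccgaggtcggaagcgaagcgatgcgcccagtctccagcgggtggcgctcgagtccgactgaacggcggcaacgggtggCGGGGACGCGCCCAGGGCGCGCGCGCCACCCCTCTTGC
Hoxa6: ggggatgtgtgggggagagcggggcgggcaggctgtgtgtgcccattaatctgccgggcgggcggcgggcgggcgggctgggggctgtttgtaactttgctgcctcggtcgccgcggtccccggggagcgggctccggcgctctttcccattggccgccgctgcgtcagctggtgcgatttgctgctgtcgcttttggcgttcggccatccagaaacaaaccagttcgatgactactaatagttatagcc
Hoxd4: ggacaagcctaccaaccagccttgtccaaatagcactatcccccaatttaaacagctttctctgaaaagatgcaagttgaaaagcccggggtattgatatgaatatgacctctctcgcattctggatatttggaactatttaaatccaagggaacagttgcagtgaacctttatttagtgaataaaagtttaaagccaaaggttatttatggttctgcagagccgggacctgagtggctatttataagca
The capitals of Hoxa5 run through a stretch of CpG repeats up to the start site, where the printed sequence ends. Both peaks continue into the gene, that of A to 52204439 and that of B to 52204417. The Hoxa6 sequence is also rich in CpG but held no peak, and that of Hoxd4 is rich in A and T.

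In the Hoxa cluster a run of open sites began below Hoxa2 and stopped at Hoxa5. A held 8 peaks over the cluster and its flanks, B held 7, and 6 were replicated. That is 4.33 replicated peaks per 100 kb, compared with 0.862 per 100 kb over all chromosomes up to the last gene of each. Over the 4 clusters with their flanks there were 8 replicated peaks in 645 kb, or 1.24 per 100 kb, and 37.4% of all 100 kb stretches of the genome held at least 1.

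Hoxa3, a gene with a role in pharyngeal organs and their mesenchyme, lies on chromosome 6 from 52169059 to 52213067 in the RefSeq table, a span that also holds Hoxa4, Hoxa5 and Hoxa6. No peak of A or B lay at its start, which is at its higher end, at 52213067 on the minus strand. Because of this long gene model, 5 replicated peaks counted for Hoxa3. Those at chr6:52170631-52171006 and chr6:52172599-52172861, near its lower end, lay in no other Hox window. The first was enriched 6.68-fold in A and 8.96-fold in B, and the second 7.08-fold in A and 8.62-fold in B. Both were higher in B than in A, and both lay below the median of each list.

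The strongest replicated Hox peak of B lay between Hoxa4 and Hoxa5, at chr6:52197361-52197541. Its fold enrichment was 10.4 in A, at percentile 53.8 of all peaks of A, and 15.3 in B, at percentile 85.9 of all peaks of B. It lay 5658 bp above the body of Hoxa4 and 4213 bp below that of Hoxa5, outside the windows of both, and it counted only for Hoxa3. It was thus a site between genes of the short models and inside the long one.

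Hoxa4, at 52189682 to 52191703, had its replicated peak at chr6:52191811-52192026, 108 bp beyond its higher end. The fold enrichment there was 7.52 in A and 10.3 in B. The 9 Hoxa genes other than Hoxa4 stand on the minus strand in the RefSeq promoter table; for Hoxa4 the start was not looked up, so the peak is described only as lying at its higher end. A second peak at its lower end, at chr6:52189113-52189323, was present in A alone with 6.30.

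Hoxa5, a gene with a role in lung and other foregut mesenchyme, lies at 52201754 to 52204587. Its peak at chr6:52204439-52204692 covered the start site, with the summit of A 39 bp inside the gene and the summits of A and B 11 bp apart. The fold enrichment was 9.39 in A and 9.88 in B, the closest match between replicates among the 8 peaks. The same peak gave Hoxa6 its count, since it ends 166 bp below the body of Hoxa6, which starts at its far end, at 52208672. No peak covered the start of Hoxa6 itself, and with each peak given to the shortest window that held it, 5 genes were open and Hoxa6 was not. When a peak counted only for the closest Hox body, 4 were open, without Hoxa4 and Hoxa6.

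The other replicated peak of the interval lay in no window and outside the span of the genes examined, at chr6:52158793-52159001, inside the long noncoding RNA gene Hotairm1 and 3416 bp below Hoxa2. It had 7.38 in A and 6.57 in B. Hoxa2, a gene of hindbrain and neural crest patterning, had no peak of either replicate in its window. Beside it were a peak of A alone in Hotairm1, with 5.11, and a peak of B alone in Hotairm2, with 8.30.

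Above Hoxa5 the Hoxa cluster was empty in both replicates. The next replicated peak lay 213.9 kb further, and Hoxa6, Hoxa7, Hoxa9, Hoxa10, Hoxa11 and Hoxa13 lay wholly in that stretch. Hoxa9 and Hoxa10, which are used in the posterior trunk and limbs and in the uterus, and Hoxa11 and Hoxa13, which are used in the distal limb and the urogenital tract, had no peak in A or B. The noncoding RNA gene Hottip at the posterior end likewise had none.

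**Figure D2:**
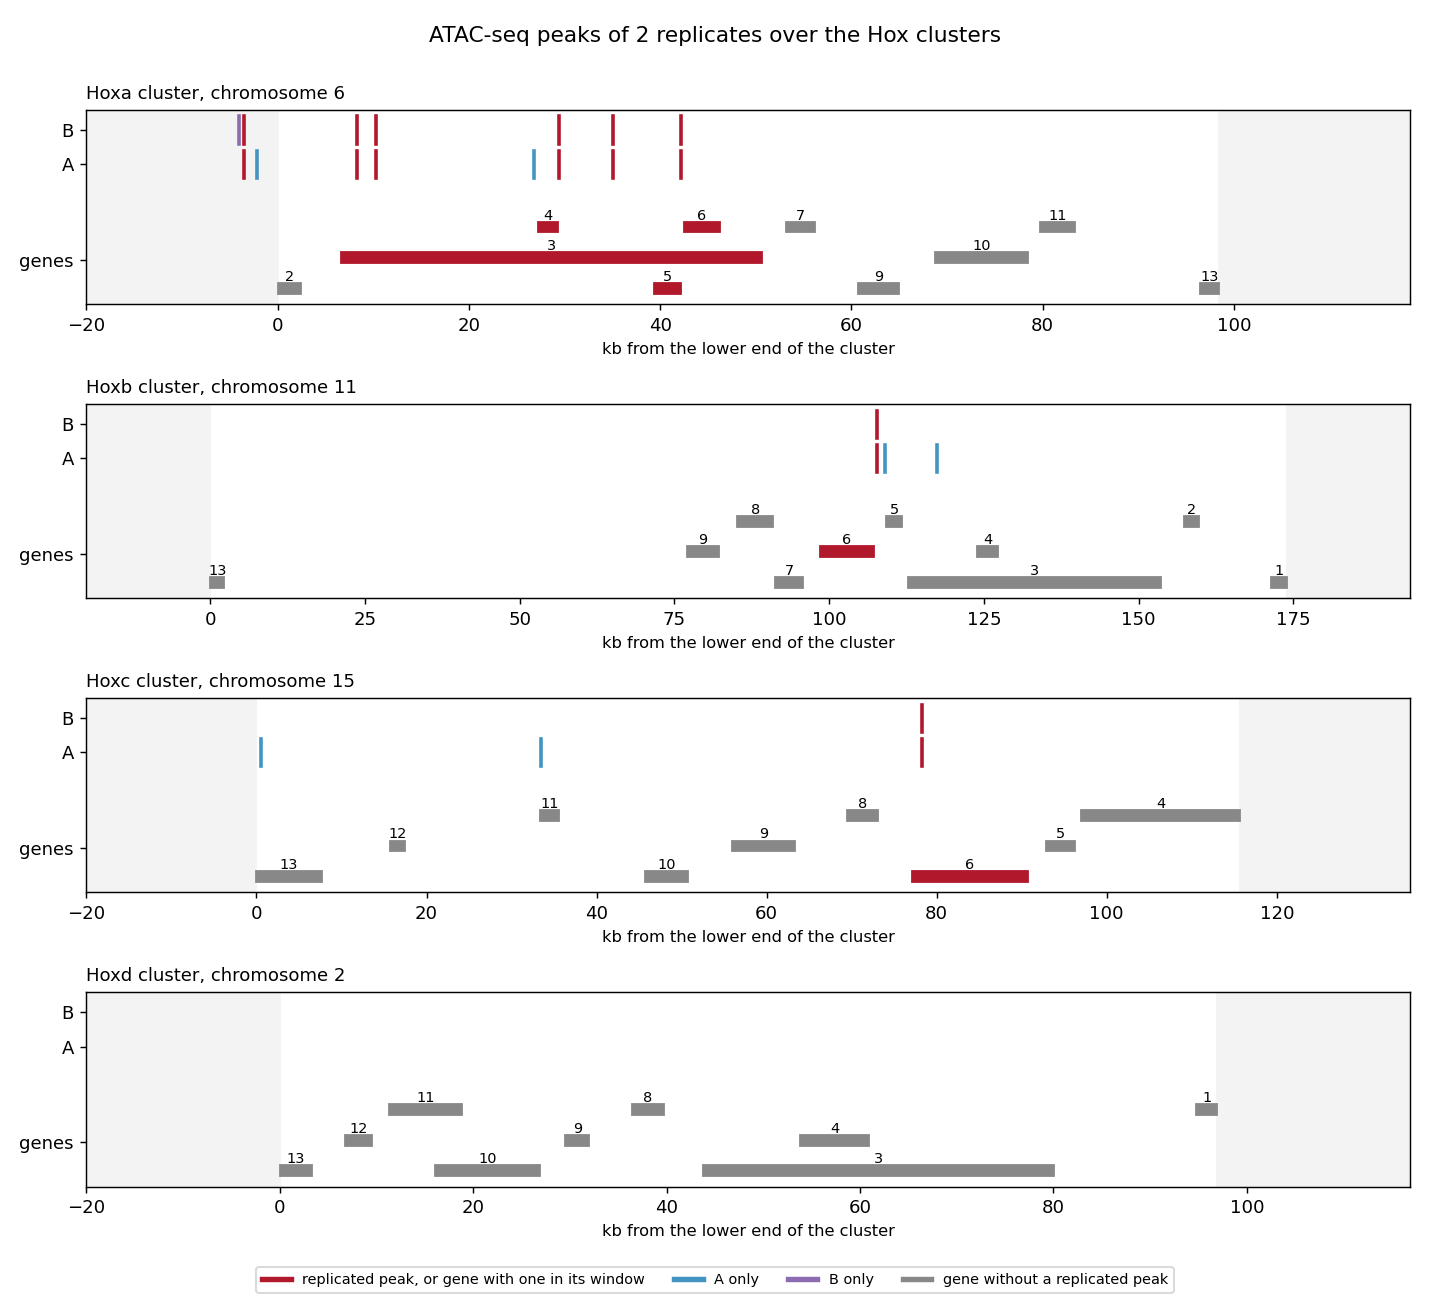
Peaks of A and B (vertical bars at the summit) above the gene bodies, numbered by paralogue group, in each cluster with its 20 kb flanks shaded; the horizontal axis is the distance in kb from the lower end of the cluster. The 6 replicated peaks of Hoxa stop at gene 5, Hoxb and Hoxc have 1 each beside or in gene 6, and Hoxd has none.

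In the Hoxb cluster 1 replicated peak was found among 3 peaks of A and 1 of B. It lay at chr11:96301925-96302121, 356 bp beyond the higher end of Hoxb6, which spans 96292814 to 96301569, and inside the antisense gene Hoxb5os. Its fold enrichment was 7.32 in A and 6.34 in B, at percentiles 18.8 and 7.28 of their lists. It lay 1391 bp below Hoxb5, just outside the 1 kb that counts.

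A alone had 2 more peaks in Hoxb. That at chr11:96303217-96303408, 104 bp below Hoxb5, was weak with 6.21. That at chr11:96311623-96311844, inside Hoxb3, had 11.2 and lay above the median of A, yet B listed no peak there. In A only, Hoxb5 and Hoxb3 thus had a peak in their window besides Hoxb6, while Hoxb4 had none.

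No peak lay in the windows of Hoxb1, Hoxb2, Hoxb4, Hoxb7, Hoxb8, Hoxb9 or Hoxb13 in either replicate. Hoxb1 and Hoxb2 are hindbrain genes, and Hoxb13 is a posterior gene known from the prostate and colon. Below the Hoxb6 peak a stretch of 225.7 kb without a replicated peak held Hoxb13, Hoxb9, Hoxb8, Hoxb7 and Hoxb6, and above it a stretch of 102.2 kb held the 5 genes from Hoxb5 to Hoxb1.

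In the Hoxc cluster the replicated peak lay inside Hoxc6, a gene of thoracic patterning that spans 102998226 to 103011882. It was at chr15:102999283-102999513, with the summit of A 1190 bp from the lower end of the gene. Its fold enrichment was 11.9 in A and 7.12 in B, and this ratio of B to A, 0.599, was the lowest of the 8. It was the strongest replicated Hox peak of A, at percentile 65.1 of that list, but lay at percentile 16.7 in B.

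A alone had 2 peaks at posterior Hoxc genes. One at chr15:102921495-102921727 lay in Hoxc13, a gene of hair and nail, with 6.49. The other, at chr15:102954455-102954604, crossed the lower end of Hoxc11 with 6.08. Both stood below percentile 10 of A (8.77 and 5.17). Hoxc4, Hoxc5, Hoxc8, Hoxc9, Hoxc10 and Hoxc12, and the noncoding RNA gene Hotair between Hoxc12 and Hoxc11, had no peak in either replicate.

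The Hoxd cluster held no peak of A or B, within 20 kb or within 50 kb. Its 9 genes, from Hoxd13 and Hoxd12, which pattern digits and the genital bud, through Hoxd11, Hoxd10, Hoxd9 and Hoxd8 to Hoxd4, Hoxd3 and Hoxd1, lay in a single stretch of 320.9 kb between replicated peaks. The nearest replicated peaks were 89.1 kb below Hoxd13 and 134.9 kb above Hoxd1. In A the nearest peak above was at 60.6 kb.

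Such a stretch is long but not rare. The 23431 gaps between neighbouring replicated peaks had a median of 30.012 kb, and the gap over Hoxd was at percentile 93.6 of them; gaps at least that long make up 58.3% of all bases between replicated peaks. The gap over the posterior genes of Hoxa was at percentile 90.2, that over the posterior genes of Hoxb at 90.8, and that over the posterior genes of Hoxc, 252.2 kb, at 91.8.

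**Figure D3:**
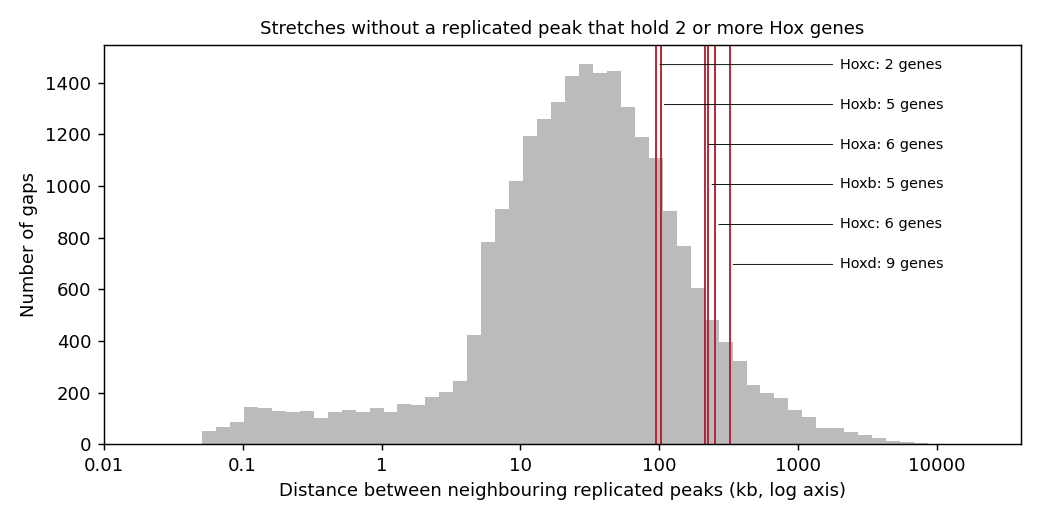
Histogram of the distance between neighbouring replicated peaks over all chromosomes, in kb on a log axis, with red lines at the 6 gaps that hold 2 or more Hox genes. The lines run from 95.035 kb, over 2 Hoxc genes, to 320.9 kb, over the 9 Hoxd genes, all right of the median of 30.012 kb.

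The replicated Hox peaks were weak in A and moderate in B. In A the 8 ran from 6.68-fold to 11.9-fold, with a median of 7.45 (median percentile 20.4 of the list) where all replicated peaks had 11.9. In B they ran from 6.34 to 15.3, with a median of 8.79 (median percentile 40.9) where all replicated peaks had 10.4. Their widths in A, 181 to 376 bp with a median of 223.5, were near the median of 268 bp, and their summits in A and B lay 0 to 155 bp apart.

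Hoxb and Hoxc held 1 replicated peak each, so the clusters could not be compared. The ratio of B to A varied among the 8 replicated Hox peaks. It was above 1 at 5 of the 6 Hoxa peaks, with a median of 1.28 and a range of 0.891 to 1.47, while it was 0.866 at Hoxb6 and 0.599 at Hoxc6. Over all replicated peaks the median ratio was 0.901 and 33.6% were above 1. With 1 value per peak and replicate, and no scaling between the lists, this was not tested.

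**Figure D4:**
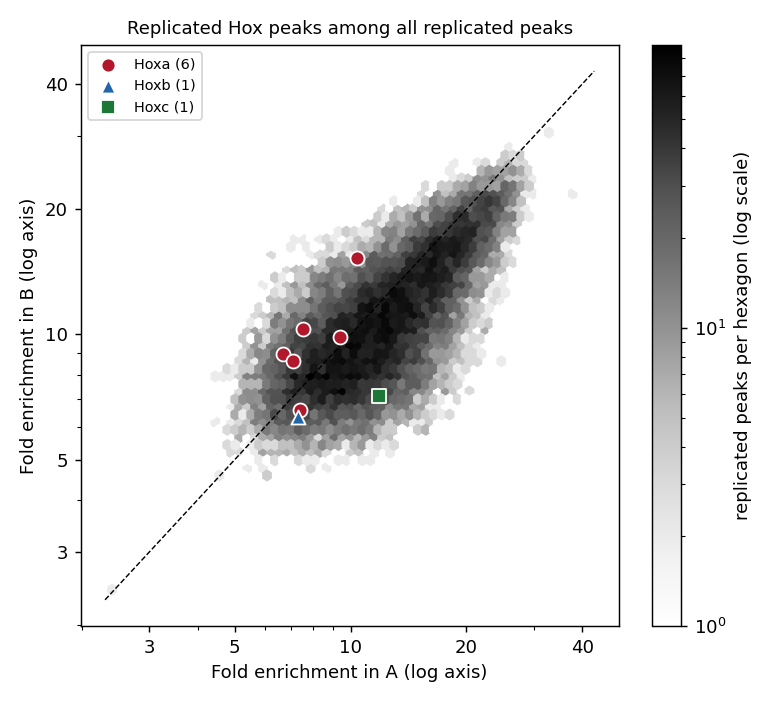
Fold enrichment in A (horizontal) and in B (vertical), both on log axes, of the 8 replicated Hox peaks over all 23452 replicated peaks in grey; the dashed line marks equal values. The 5 Hoxa peaks above the line have ratios up to 1.47, and the Hoxc6 peak lies below it at 0.599.

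Of the 14 peaks of A in the 4 intervals, 8 (57.1%, Wilson 95% interval 32.6 to 78.6%) overlapped a peak of B, where 64.1% of all peaks of A did. Of the 9 of B, 8 overlapped a peak of A (88.9%, interval 56.5 to 98.0%), where 81.7% of all peaks of B did. Both shares lie within counting error of those of the whole lists.

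Few of the Hox start sites in the promoter table were open, and many were rich in CpG. The RefSeq promoter table holds 24 windows of 300 bases, from 250 before to 50 after a start, for 22 of the 38 genes; Hoxa4, Hoxb6 and Hoxc6, which had replicated peaks in their windows, are among the other 16, whose starts were not examined. The table covers all 9 Hoxd genes, where no peak lay, but only Hoxb1, Hoxb4 and Hoxb8 of Hoxb and only Hoxc4 of Hoxc. Shares over the 24 windows therefore weigh Hoxd more than Hoxb or Hoxc. A replicated peak overlapped 1 of the 24, that of Hoxa5 (4.17%), against 27.3% of all 32851 windows. Their median ratio of observed to expected CpG was 0.626, above the 0.384 of all windows. Among the 12 Hox windows with a ratio of 0.6 or more 1 was open, where 61.8% of all windows of that kind were. Hoxa13, with 45 CpG in its window, and Hoxd13, with 37, were closed, and Hoxa5 had the highest ratio of the 24, 1.02.

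Short motifs known for Hox control were counted in the 24 windows on both strands, as letters only. The retinoic acid receptor core site AGGTCA was in 7 of 24 windows (29.2%, against 16.3% of all windows): those of Hoxa5, Hoxb4, Hoxc4, Hoxd3, Hoxd4, Hoxd8 and Hoxd10. Of these, Hoxa5 was open. The direct repeats of it known as DR5 and DR2 were in no Hox window, and each was in 3 of all windows. The PBX and HOX site TGATNNAT was in 4 (16.7% against 8.85%), the MEIS site TGACAG in 2 (8.33% against 19.2%), the homeodomain core TAATTA in 2 (8.33% against 5.29%), the posterior site TTTATGG in 1, that of Hoxd4 (4.17% against 2.75%), and the TATA box TATAAA in 4 (16.7% against 13.6%). Hoxa5 held none of these 5. Every DR5 or DR2 also counts as AGGTCA.

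No peak of A or B lay within 1 kb of the 6 microRNA genes inside the clusters, where 11.2% of all 1228 microRNA genes had one and 8.22% had a replicated one. With 6 genes, a count of 0 is not apart from those shares. Their main products are printed from RefSeq with the seed, bases 2 to 8, in capitals, because loci in different clusters share seeds.
miR-10a-5p: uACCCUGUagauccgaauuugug
miR-10b-5p: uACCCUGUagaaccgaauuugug
miR-196a-5p: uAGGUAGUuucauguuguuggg
miR-196b-5p: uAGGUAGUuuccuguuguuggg
Mir10a in Hoxb and Mir10b in Hoxd share the seed ACCCUGU. Mir196a-1 in Hoxb, Mir196a-2 in Hoxc and Mir196b in Hoxa share the seed AGGUAGU. The remaining one, Mir615, lies in Hoxc5. Of 27 long noncoding RNA genes in the 4 intervals, 6 had a replicated peak within 1 kb, a share near the 22.4% of all 12727 such genes: Hotairm1, Hotairm2, Gm15050, LOC115490409 and Hoxaas3 in Hoxa, and Hoxb5os in Hoxb. Hotairm1 and Hotairm2 counted through the same peak. Reads cannot be assigned to a strand in this assay, and the peak in Hoxaas3 is the same peak as that of Hoxa5. The peak in Hoxb5os is the one in the window of Hoxb6, outside the body of any Hox gene examined.

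Genes whose products work with Hox proteins were mostly open, at shares to be read against the 51.4% of all protein-coding genes. All 9 TALE cofactor genes, which encode the PBX, MEIS and PKNOX partners of Hox proteins on DNA, had a replicated peak in their window, with a median of 1 and a mean of 2.67 per gene. Pknox2 had 7, with up to 17.6 in A and 13.9955 in B, and Meis1 had 5, with up to 16.1 in A and 10.8 in B. Pknox1 had 1, with 18.5 in A and 15.3 in B, above each replicated Hox peak in A.

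Of 22 Polycomb and trithorax genes, which encode the proteins that keep Hox genes silent or active, 20 had a replicated peak, with a median of 1. Phc2 had 7, with up to 22.1 in A and 15.0 in B, and Jarid2 had 5, with up to 25.4 and 13.5. Kdm6b, a histone demethylase gene, had 3, and Kmt2d, a histone methyltransferase gene, had 2. Bmi1 and Ring1 had none.

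Of 9 genes that act upstream of Hox genes, 5 had a replicated peak (55.6%), a share near the 51.4% of all protein-coding genes. The retinoic acid receptor genes Rarb, Rara and Rarg had 10, 7 and 5, and Cyp26b1, which encodes an enzyme that breaks down retinoic acid, had 1, with 10.4 in A and 12.5 in B. Cdx1 had 1, while Cdx4 and Cdx2, which encode regulators of posterior Hox genes, had no peak in either replicate. Aldh1a2, the longest gene of the list without a replicated peak, makes retinoic acid and had 1 in A alone, and Cyp26a1 had none.

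Among 42 other developmental homeobox genes, 5 (11.9%) had a replicated peak, close to the 15.8% of the Hox genes, and the median of both was 0. Lhx2, known from stellate cells, had 4, with up to 9.76 in A and 9.88 in B. Gbx1 had 1, with 18.8 in A and 14.8 in B, Meox1 had 1, with 11.1 and 10.1, and Msx1 had 1, with 9.24 and 11.5. Emx2 was the fifth. Lmx1a, the longest without one, had 2 peaks in A alone, and Pax2 had none. Evx1 and Evx2, the neighbours of Hoxa13 and Hoxd13, were closed in both replicates.

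Among the 10000 strongest peaks of each list by −log10 q, 28.4% of protein-coding genes had a replicated peak. So did 4 of 9 TALE cofactor, 10 of 22 Polycomb and trithorax, 2 of 9 upstream and 1 of 42 other homeobox genes.

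**Figure D5:**
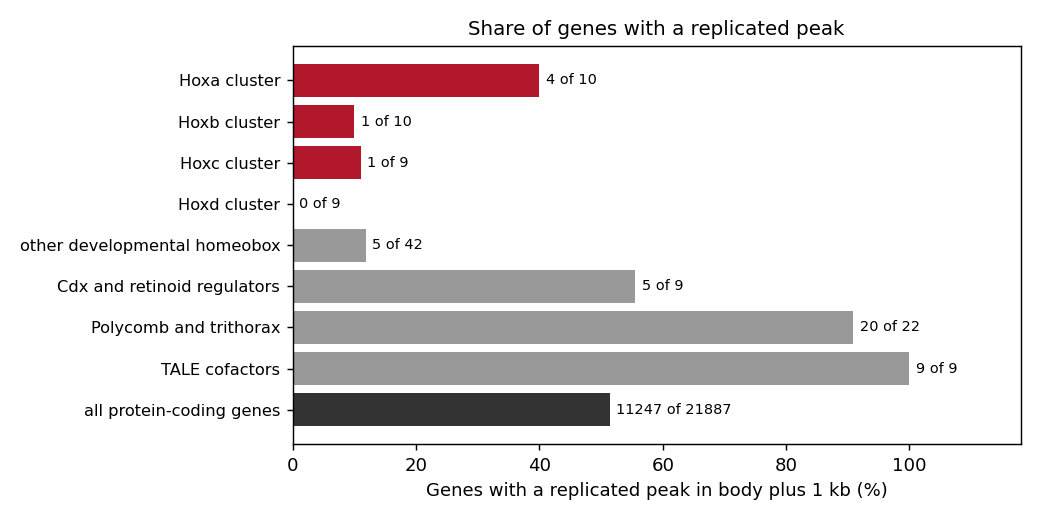
Percent of genes with a replicated peak in the gene body plus 1 kb, on an axis from 0, for each Hox cluster, 4 related lists and all protein-coding genes, with the counts at the bars. Hoxa reaches 4 of 10 and Hoxd 0 of 9, against 9 of 9 for TALE cofactors and 11247 of 21887 for all genes.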

How the data were processed

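ATAC-seq was run on sorted stellate cell nuclei in 2 samples of 1 group, taken from the labels. Per the submitters' processing notes, mm10 was the build, and HOMER, MACS2, bedtools, Picard, SAMtools and STAR 2.7.0 were used, in roles the notes do not state. No source used here says if reads were shifted for the transposase. The authors deposited 1 peak list per replicate, each with a score, a fold enrichment (a linear ratio over local background), a −log10 p and a −log10 q per peak. Depth is unknown, since the lists hold no counts.

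Coordinates are 1-based. Gene spans, promoter and microRNA sequences came from RefSeq tables of GRCm38.p6, the assembly of mm10; no genome sequence was used. All 38 genes matched by symbol; of the 39 Hox genes in the table, 1 is not reported here, nor are the values of 1 gene of a related list. Counts were made with Python 3.11.15, numpy 2.4.6 and pandas 2.3.3, scipy 1.17.1 gave Wilson intervals and matplotlib 3.10.9 the figures. The counting was tested on simulated data. Percentiles are ranks of fold enrichment within a list; where 2 peaks of B met a peak of A, the stronger was used. Intervals cover counting error only.

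All 38 genes are named; of each related list, up to 4 genes with the most replicated peaks and up to 2 without one, longest first, and others chosen after their values were seen (Cyp26b1, Cyp26a1, Cdx2, Emx2, Evx1 and Evx2). The members and lists were chosen with earlier results of these data known. Alternatives varied the overlap, the threshold, the window, the flank, the assignment and the replicate.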

Additional observations from a re-analysis of the deposited data

How the results depend on the processing

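With the 10000 strongest entries of each list by −log10 q, no Hox gene was open (0 of 38, where 28.4% of protein-coding genes were). Each cluster then held 0 replicated peaks, so no Hox peak was replicated within that top. With gene bodies alone 3 genes were open, Hoxa3, Hoxa5 and Hoxc6. Leaving out a replicate gave 6 to 10 open genes, with 10 to 16 pairs of a gene and a peak in its window in place of 10, 1 to 3 peaks in Hoxb and 1 to 3 in Hoxc; the higher values are those of A alone. Hoxb had 2 with flanks of 50 kb. The other 48 values of these counts stayed within 1.5 times, under reciprocal overlap of 50%, summit overlap, a −log10 q of 5 or more, 2500 bp windows, nearest and shortest assignment (the latter added after seeing the data) and pieces counted once, and the Hoxd count was 0 under each. The lowest −log10 q of a peak in the Hox intervals was 6.15, so the cut at 5 could remove none. Settings that only remove peaks could not raise the Hoxd count. Of the values for single Hox genes and the related lists 114 stayed within 1.5 times and 24 moved beyond that. No paired analysis was possible because there is 1 group.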
